A study of Mus musculus with 8 samples.

Results

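The enzymes of the methionine cycle were examined as 9 mouse genes, Mat1a, Mat2a, Mat2b, Gnmt, Nnmt, Ahcy, Mtr, Bhmt and Cbs, and their cytosines were chosen by position and read depth alone. A cytosine belonged to the set if 10 reads or more covered it in each of the 8 libraries and it lay inside the gene, as drawn by GENCODE M21 on the mm10/GRCm38 assembly, or within 5000 bp upstream of its 5′ end. Of 567750 cytosines read to that depth, 114 met the rule. They fell in 8 of the 9 genes, with 36 in Ahcy, 21 in Mat2b, 17 in Mat2a, 16 in Cbs, 10 in Mtr, 8 in Gnmt, 4 in Mat1a, 2 in Bhmt and 0 in Nnmt.

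The DNA came from tumors of NIC-5231, 1 mouse mammary cancer cell line from ErbB2-driven tumors, which was injected into a mammary fat pad of immunodeficient NSG mice aged 5 to 7 weeks. Palpable tumors were treated by intraperitoneal injection every 2 days in 4 groups of 5 mice, which received vehicle (saline with PEG and DMSO, the solvent in all groups), 10 mg/kg of C29, 1 mg/kg of 5-azadC, or the 2 together. C29 inhibits the nuclear receptor ERRα, which the study connects to the methionine cycle. The nucleoside drug 5-azadC, or decitabine, is built into DNA and traps DNA methyltransferases there. Reduced representation bisulfite sequencing (RRBS), which reads fragments cut at the MspI site CCGG, was run on 2 libraries per group, each from the pooled DNA of 2 mice, so a p-value below measures the spread between such pools, and the reads of tumor and host cells, both of mouse, cannot be told apart.

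The cycle makes S-adenosylmethionine (SAM), the methyl donor of DNA methyltransferases. Methionine adenosyltransferases form SAM, methyltransferases turn it into S-adenosylhomocysteine, Ahcy hydrolyses that product to homocysteine, and homocysteine is either methylated back to methionine by Mtr or Bhmt or taken out of the cycle by Cbs. Start sites of genes in CpG-dense sequence are usually free of methylation, whereas gene bodies and CpG-poor start sites are often methylated.

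The start sites of Ahcy, Mat2a, Mat2b and Mtr stayed under 10% methylation in all 8 libraries, and neither drug moved them by as much as 2 percentage points on average. Methylation in the body of Cbs averaged 86.3% ± 2.70 in the 4 libraries with 5-azadC and 96.6% ± 3.36 in the 4 without it (SD, n = 4 each), and a single cytosine upstream of Cbs went the other way, with 88.7% ± 18.4 against 13.8% ± 27.6 (SD, n = 4 each). For C29, the 4 libraries with and the 4 without the drug overlapped in each measured region of the members. After adjustment over all regions or tiles measured genome-wide, no member passed in the tests that use the spread between libraries. No other region or tile passed either, and the smallest adjusted p of any region for 5-azadC was 0.355 (exact permutation). The failure to pass therefore says nothing particular about the members.

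Conversion was similar in all libraries, and total reads were lowest in the 2 combination libraries (57947338 and 51359825, against 63888872 or more in the others). The libraries held 51359825 to 81299065 reads summed over cytosines, the median listed cytosine had 21 to 30 reads, and spike-in DNA read 0.216% to 0.329% methylated for the unmethylated control. At the 114 cytosines of the members the lowest read number over the libraries had a minimum of 10 and a median of 19.5. By read number, the 114 cytosines fell into 75 sets with identical read numbers in all libraries, the largest of 6. Start sites of 5 of 8 epithelial marker genes were measured, with a mean methylation of 12.1% to 21.1% per library and Erbb2 between 42.0% and 69.0%, and 2 of 6 fibroblast, 2 of 5 endothelial and 2 of 5 adipocyte markers were measured, with means of 38.9% to 68.6%, 40.8% to 57.6% and 56.9% to 83.7%. The fibroblast mean was 61.2% and 68.6% in the combination libraries and 38.9% to 47.5% in the 6 others. Col1a2, at 4 cytosines, read 57.6% and 56.8% in the combination libraries and 11.2% to 34.7% in the 6 others. Thy1, at 3 cytosines, overlapped, with 64.9% and 80.3% in the combination libraries and 45.8% to 66.7% in the 6 others. None of 6 leukocyte markers was covered, and Cldn7 alone was under 10% in all libraries. In bulk tumor DNA, a change in the share of cells of one type and a change within cells cannot be told apart, and the part of the host cells in the results was not tested.

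Of the 114 cytosines, 61 had 0 methylated reads in every library, 68 stayed under 10% in every library and 24 stayed over 50% in every library. By annotation, 52 lay in introns, 27 upstream, 17 in untranslated regions, 14 in coding exons and 4 in noncoding exons. The plot of cytosine positions shows how little of each gene was read.

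**Figure D1:**
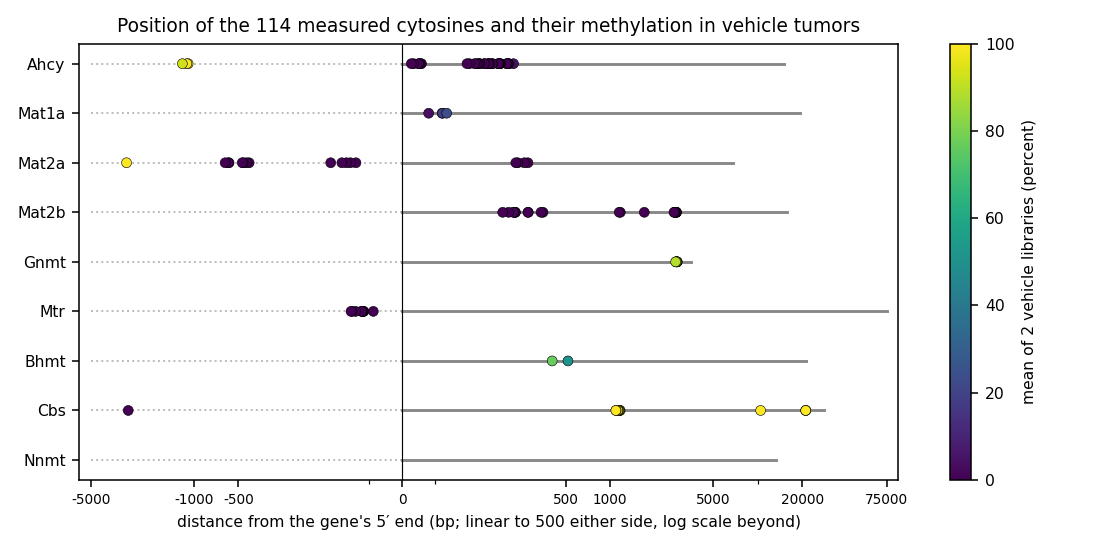
Each dot is 1 of the 114 cytosines, placed by its distance from the 5′ end of its gene in bp (linear to 500 bp either side, logarithmic beyond) and colored by its mean methylation in the 2 vehicle libraries in percent; grey lines are gene bodies and dotted lines the 5000 bp upstream. The unmethylated dots cluster near the start sites of Ahcy, Mat2a, Mat2b and Mtr, and the row of Nnmt is empty.

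Reads were summed over 3 kinds of region, namely the start-site region (1000 bp either side of the 5′ end), the upstream region (5000 to 1000 bp before it) and the gene body (from 1000 bp after it to the 3′ end), and 12 such regions held cytosines of a member. Each value below is the percent of methylated reads in 1 library. A region was counted as different where all 4 libraries with a drug lay below, or above, all 4 without it, and the p-value is from a two-sided exact permutation test of 4 libraries against 4, whose smallest possible value is 0.0286. With 5-azadC, 1 of the 12 regions was lower and 1 was higher. Over 30846 regions of protein-coding genes the same was true of 7.63% (lower) and 0.428% (higher). With C29, 0 of 12 were lower and 0 higher, beside 0.995% and 0.924% of all regions.

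Mat1a and Mat2a encode the catalytic subunits of methionine adenosyltransferase, with Mat1a the form of adult liver and Mat2a the form of most other tissues, and Mat2b encodes a regulatory subunit of the latter. Mat1a (chr14:41105035-41124412, plus strand) was measured at 4 cytosines, 81 to 136 bp after its 5′ end in the 5′ untranslated region. Summed over them, methylation was 26.5% and 11.9% in vehicle, 34.0% and 25.7% with C29, 27.6% and 28.6% with 5-azadC, and 10.9% and 12.6% with both drugs. In these sums the combination libraries were low and the single-drug libraries high, and the vehicle libraries fell near either end. On the minus strand alone, combination replicate 2 read 36.7%, above both C29 libraries (30.6% and 30.8%). The combination libraries also had the highest mean of the 2 fibroblast markers, mainly through Col1a2, and the part of these markers here was not tested. Over all libraries the difference with minus without 5-azadC was -4.63 percentage points (exact permutation p = 0.629) and that for C29 was -2.84 (exact permutation p = 0.714).

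Mat2a (chr6:72432799-72439558, minus strand) had 16 cytosines in its start-site region, which also overlaps the noncoding gene Particl. They read 0% in 7 libraries and 2.73% in C29 replicate 1. Summed over the 16 cytosines, the depth of 442 to 790 reads would allow an undetected share of up to 0.380% to 0.679% where 0 was read. This limit is 3 reads of the total and covers counting error only, as do all such limits here, because RRBS reads carry no molecular identifiers. A read over several cytosines is counted at each, so the separate reads are fewer and the limit for them is higher. The methylated reads of that 1 library came from the most downstream cytosine of 2 runs, with 27.9% at +384 and 20% at -141 bp, while the 14 other start-site cytosines were at 0 in all libraries.

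A single cytosine at -2866 bp, upstream of Mat2a, was fully methylated in 6 libraries and partly in the others, at 57.9% in C29 replicate 2 (11 of 19 reads, 95% Clopper-Pearson interval 33.5% to 79.7%) and 68.1% in 5-azadC replicate 2 (49 of 72 reads, 56.0% to 78.6%). The partly methylated libraries belonged to different groups, and both combination libraries were at 100%. The difference with minus without 5-azadC was 2.54 points (exact permutation p = 1).

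Mat2b (chr11:40679314-40695203, minus strand) was nearly unmethylated at its start site and, in 7 libraries, at the measured cytosines further inside the gene. The 10 cytosines of the start-site region read 0.262% in vehicle replicate 1, 0.240% in combination replicate 2 and 0% in the 6 other libraries, on 320 to 941 reads. The 11 cytosines of the gene body all lay 1149 to 2814 bp after the 5′ end, and the rest of the 15890 bp gene was not measured. The median gene body of the genome averaged 72.9% in vehicle, whatever the distance from the start. These 11 cytosines read between 0% and 0.258% in 7 libraries and 6.83% in combination replicate 1. In that library the signal came from 3 plus-strand cytosines of 1 run, with 41.5% at +2814, 19.5% at +2794 and 18.3% at +2748 bp, and the other member of the group read 0% on the same run.

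Gnmt, glycine N-methyltransferase, uses up SAM by methylating glycine, and Nnmt methylates nicotinamide. Gnmt (chr17:46725664-46729168, minus strand) was measured at 8 cytosines, 2774 to 2845 bp after the 5′ end in a coding exon that also overlaps the gene Gm26904. The stretch is shown because it holds all measured cytosines of the gene, with the measured CpGs in capitals, on the strand of the gene (GRCm38, chr17:46726313-46726404).
Gnmt coding exon: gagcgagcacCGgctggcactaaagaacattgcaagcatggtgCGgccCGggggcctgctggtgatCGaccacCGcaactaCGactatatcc
The reads showed a highly methylated exon, with 94.0% and 89.7% in vehicle, 74.2% and 88.5% with C29, 83.5% and 94.5% with 5-azadC, and 89.3% and 79.9% with both. The 4 libraries with C29 averaged 83.0% ± 7.24 and those without 90.4% ± 5.10 (SD, n = 4 each), a difference of -7.40 points whose groups overlapped (exact permutation p = 0.143). Without 5-azadC replicate 1 the groups no longer overlapped, at a difference of -9.71. For 5-azadC the difference at these 8 cytosines was 0.17 points (exact permutation p = 0.943). With 10 reads required only in the vehicle and 5-azadC libraries, chosen after seeing the data, neighboring tiles of 1000 bp went opposite ways. That at the 3′ end (4 cytosines) read 55.3% and 65.9% in vehicle and 25.3% and 44.3% with 5-azadC, -24.4 points. That from position 46727001 (2 cytosines) read 60.6% and 100% in vehicle and 96.9% and 97.3% with 5-azadC, 21.4 points.

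The start-site region of Gnmt had no cytosine read 10 times in all libraries. Of its 37 cytosines with 10 reads in at least 1 library, 158 values were available, and 110 of them were 0%. In the 1000 bp tile at the 5′ end, 4 cytosines with 10 reads in the vehicle and 5-azadC libraries read 0% and 1.79% in vehicle and 25% and 17.3% with 5-azadC (17.9 points higher, under the 25 points of a call), and 4 cytosines with 10 reads in the vehicle and combination libraries read 0% and 1.79% in vehicle and 0% in both combination libraries. Nnmt (chr9:48591877-48605153, minus strand) had no listed cytosine near its start site in any library. At 1 intronic cytosine, 6434 bp after its 5′ end (plus strand), 7 libraries had 10 reads or more, so it missed the rule because 5-azadC replicate 2 held 3 reads (0 methylated). The libraries read 72.1% and 0% in vehicle (68 and 85 reads), 68.4% and 100% with C29, 87.5% with the deeper 5-azadC library, and 59.6% and 95.6% with both. The vehicle libraries stood further apart than the pairs with C29 or with both drugs, since the interval of the second ended at 4.25% and that of the first began at 59.9% (95% Clopper-Pearson).

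Ahcy (chr2:155059310-155074497, minus strand) removes S-adenosylhomocysteine, which inhibits methyltransferases. Its start-site region held 33 cytosines between 28 and 340 bp after the 5′ end, all but the 6 nearest to it in an intron, and the densest stretch of them is shown (GRCm38, chr2:155074187-155074309, strand of the gene, measured CpGs in capitals), since 13 CpGs in so short a window stayed almost unmethylated.
Ahcy intron: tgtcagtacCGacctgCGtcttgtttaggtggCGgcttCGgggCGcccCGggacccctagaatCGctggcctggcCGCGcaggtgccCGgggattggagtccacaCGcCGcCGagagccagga
The 33 cytosines read 0.160% and 0% in vehicle, 0% and 0% with C29, 0.581% and 0.657% with 5-azadC, and 0.0537% and 0.894% with both, on 1119 to 2283 reads. In 3 of the 4 libraries with 5-azadC the level was above that of the 4 others, and combination replicate 1 lay below vehicle replicate 1. The difference was 0.51 points (exact permutation p = 0.0571, adjusted p = 0.464 over all regions), and with vehicle replicate 1 or combination replicate 1 left out the groups no longer overlapped (0.546 and 0.670 points). Of the 33 cytosines, 5 had a higher mean with 5-azadC, 1 had a lower one and 27 were at 0 in every library. The unmethylated spike-in DNA read 0.216% to 0.329% in the same libraries.

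Upstream of Ahcy, 3 cytosines at -1095 to -1198 bp were methylated throughout, at 96.7% and 95.6% in vehicle, 94.2% and 100% with C29, 100% and 96.1% with 5-azadC, and 100% and 85.8% with both. The boundary between the unmethylated start site and the methylated flank thus lay in the same interval in each library. The difference with minus without 5-azadC was -1.14 points (exact permutation p = 0.886).

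Mtr, the cobalamin-dependent methionine synthase, returns homocysteine to methionine with a methyl group from folate (chr13:12182712-12258113, minus strand). Its 10 cytosines lay at -88 to -156 bp from the 5′ end, in the promoter stretch shown here for comparison with the methylated stretches of Cbs and Gnmt (GRCm38, chr13:12258191-12258279, strand of the gene, measured CpGs in capitals).
Mtr upstream: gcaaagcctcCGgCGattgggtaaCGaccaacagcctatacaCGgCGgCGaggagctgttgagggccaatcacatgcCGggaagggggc
The region read 0% in 6 libraries, 3.04% in C29 replicate 1 and 8.38% in 5-azadC replicate 2. In the latter library each of the 4 plus-strand cytosines read 20% and each of the 6 minus-strand cytosines 0%, so the opposite strands of the same CpGs differed. The difference with minus without 5-azadC was 1.34 points (exact permutation p = 1).

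Bhmt, betaine-homocysteine methyltransferase, which takes its methyl group from betaine and is best known from liver and kidney (chr13:93616675-93637961, minus strand), was measured at 2 cytosines in its start-site region. Together they read 50.7% and 86.3% in vehicle, 68.0% and 81.5% with C29, 77.4% and 67.9% with 5-azadC, and 75.2% and 68.7% with both. The range of 35.6 points was the widest of the 6 measured start-site regions, and its ends were the vehicle libraries. The cytosine 458 bp after the 5′ end ranged from 67.3% to 98.6%, while the one at +516 bp ranged from 0% of 26 reads in combination replicate 1 to 86.0% of 50 reads in vehicle replicate 2. The difference was 0.69 points for 5-azadC (exact permutation p = 0.971) and 2.76 for C29 (exact permutation p = 0.8).

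Of 10795 protein-coding genes with at least 5 cytosines in the start-site region, those closest to Bhmt over the 8 libraries by mean absolute difference were Ptpn20 (6.35 points), Map10 (6.62), Fancd2os (7.25), Pcdhga3 (7.45) and Bhlha15 (7.51).

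Bhmt was also the 1 gene of the 7 searched with the exact extended ERR element TCAAGGTCA in its promoter window. In human breast cancer cells the paper reports ERRα binding near AHCY, MAT1A and MAT2A, which this search of short mouse windows does not address. RefSeq promoter windows (GRCm38, 250 bases before to 50 after a start, both strands searched) matched 7 members, not Mat1a or Nnmt. The element, which contains the half-site AAGGTCA, was present in 0.423% of 32851 promoters, the half-site in 4.72%, and the MspI site CCGG, present in 7 of the 7 members, in 52.8%. In Bhmt the element lay 75 bases before the RefSeq start, or 128 bp after the GENCODE 5′ end used for distances here, and a further half-site followed at -48. It is printed with the element in capitals because it is the one match (GRCm38, chr13:93637815-93637843, strand of the gene). Neither measured cytosine lies in it, and a match of letters is no evidence of binding.
Bhmt promoter: tgaccccagaTCAAGGTCAgaggcctgct

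Cbs, cystathionine beta-synthase, commits homocysteine to cysteine synthesis (chr17:31608894-31637238, minus strand). Its 16 cytosines were 11 in an intron 1090 to 1166 bp after the 5′ end, 1 in an intron at +10463, 3 in a coding exon at +21146 to +21192, and 1 at 2791 bp upstream. The 3 stretches that hold all but the lone intronic cytosine are shown, since the differences described below rest on them (GRCm38, strand of the gene, measured CpGs in capitals). They lie at chr17:31639989-31640069, chr17:31636062-31636158 and chr17:31616036-31616102.
Cbs upstream: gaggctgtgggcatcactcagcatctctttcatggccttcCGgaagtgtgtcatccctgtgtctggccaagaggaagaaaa
Cbs intron: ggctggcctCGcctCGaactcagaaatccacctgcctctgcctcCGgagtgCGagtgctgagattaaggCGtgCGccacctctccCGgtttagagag
Cbs coding exon: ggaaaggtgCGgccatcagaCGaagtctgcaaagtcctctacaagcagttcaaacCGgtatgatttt

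The 15 cytosines of the Cbs gene body read 100% and 96.2% in vehicle, 92.1% and 98.1% with C29, 85.5% and 90.3% with 5-azadC, and 84.2% and 85.2% with both, on 649 to 1221 reads. All 4 libraries with 5-azadC were below the 4 without, with a mean difference of -10.34 points. The exact permutation p was 0.0286, the smallest possible, and the adjusted p over all regions was 0.355, the smallest that any region reached. Among 12975 gene bodies, 14.1% were lower in this way, and the median gene body changed by -6.59 points. Of all gene bodies, 31.0% fell further than that of Cbs. With the 2 strands of each CpG summed the groups overlapped, at -8.35 points.

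The lower level came mainly from the intronic run. Each of its 11 cytosines had a lower mean with 5-azadC than without, and 7 of them were at 100% in the 4 libraries without 5-azadC and 0 of them in the 4 with it. Summed over their tile of 1000 bp, they read 100% and 98.7% in vehicle, 92.7% and 100% with C29, 80.6% and 88.9% with 5-azadC, and 87.0% and 87.6% with both. Over the more numerous cytosines of this tile with 10 reads in the 4 libraries compared, a choice made after seeing the data, the level was lower and the 5-azadC libraries did not both lie below vehicle: 22 cytosines read 68.2% and 72.5% in vehicle and 49.5% and 70.5% with 5-azadC. On that choice 22 cytosines read 62.8% and 58.4% in vehicle and 68.1% and 70.9% with C29, and 24 cytosines read 68.4% and 61.1% in vehicle and 45.7% and 52.6% with both drugs. The sets of cytosines differ between these comparisons. Reads of the 2 strands differed within a library, with 74.8% on the plus and 100% on the minus strand in 5-azadC replicate 1, and 93.0% and 83.1% in replicate 2.

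Of the 97 bases printed for this run, 84 are soft-masked as repeat sequence in the genome, as were 10 of the 16 Cbs cytosines and 14 of the 114 in the set. Across the genome, the 47803 masked cytosines averaged 54.6% ± 0.912 with 5-azadC and 59.9% ± 0.230 without, a difference of -5.31 points (exact permutation p = 0.0286). The 519947 unmasked cytosines averaged 28.98% ± 0.507 and 32.2% ± 0.698 (SD, n = 4 each), a difference of -3.20 (exact permutation p = 0.0286). The part of the repeat in the Cbs result was not tested.

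The coding exon of Cbs behaved differently from the intron. Its 3 plus-strand cytosines read 100% and 90.8% in vehicle, 85.7% and 87.3% with C29, 100% and 100% with 5-azadC, and 61.9% and 68.4% with both drugs. The combination libraries were the lowest, and both 5-azadC libraries and vehicle replicate 1 were at 100%. The mean of the 2 measured fibroblast markers also stood apart in the combination libraries, mainly through Col1a2, as given above. Its part in this result was not tested. The lone intronic cytosine at +10463 was fully methylated in 7 libraries and read 96.9% in 5-azadC replicate 1.

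The upstream cytosine of Cbs, on the minus strand at position 31640029 of chromosome 17, read 0% in both vehicle libraries (0 of 11 and 0 of 22 reads). With C29 it read 55.2% in replicate 1 (16 of 29 reads) and 0% in replicate 2 (0 of 16). With 5-azadC it read 100% (22 of 22) and 93.3% (14 of 15), and with both drugs 61.5% (24 of 39) and 100% (30 of 30).

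These 4 libraries with 5-azadC were all above the 4 without, C29 replicate 1 being the closest, by 74.92 points on average (exact permutation p = 0.0286, adjusted p = 0.355 over all regions). The 95% Clopper-Pearson interval of C29 replicate 1 (35.7% to 73.6%) overlapped that of combination replicate 1 (44.6% to 76.6%). Among 4879 upstream regions, 0.307% were higher in all 4 libraries with 5-azadC, and 99.98% had a smaller difference than Cbs. Of the 1166 upstream regions that rested on 1 cytosine, as this one did, 2 were higher and 43 lower.

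Other cytosines upstream of Cbs were too thinly read for the rule. At -2552 bp, 0 of 10 and 0 of 17 reads were methylated in vehicle, 0 of 4 and 0 of 8 with C29, and 11 of 11 in 5-azadC replicate 2, the 1 library with 5-azadC that listed it. Farther out, 0 of 12 reads were methylated at -3457 bp in combination replicate 2, whereas vehicle libraries were fully methylated at -4655 and -4659 bp (10 of 10 reads each) and at -4826 bp (14 of 14), so neither a low vehicle level nor a high level with 5-azadC held throughout the upstream region. The opposite strand of the cytosine at -2791 was listed in combination replicate 2 alone, with 0 of 8 reads methylated where the minus strand had 30 of 30. The start-site region of Cbs had 64 cytosines with 10 reads in at least 1 library but none with 10 in all, and 293 of their 329 values were 0%. The nearest annotated 5′ end to the upstream cytosine was that of Cbs itself, and the next was a processed pseudogene 4750 bp away.

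**Figure D2:**
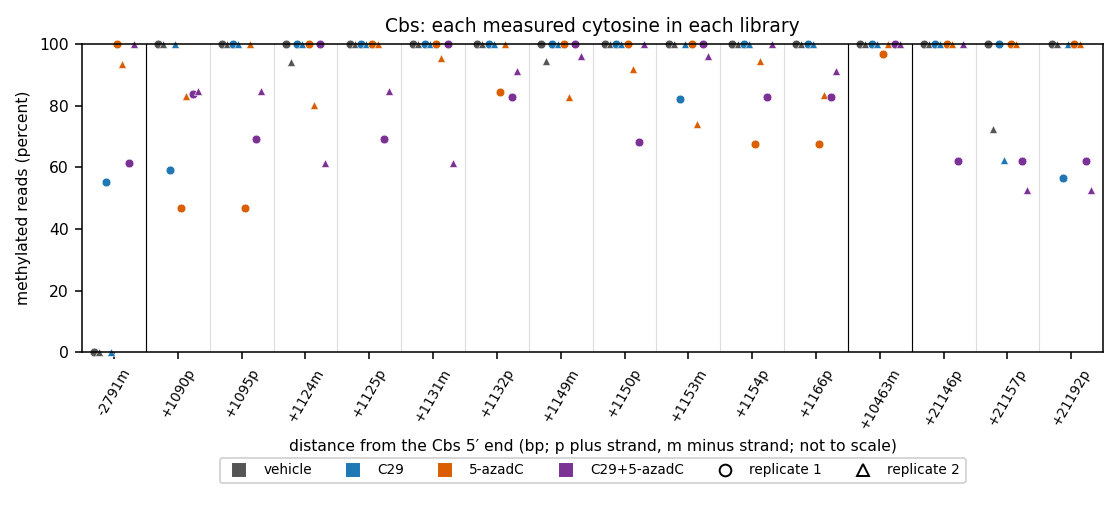
Methylation in percent of each of the 16 measured Cbs cytosines (columns, labelled by distance from the 5′ end in bp and by strand, not to scale) in the 8 libraries, with color for the group and shape for the replicate. The leftmost column reads 0% in vehicle, 0% and 55.2% with C29 and between 61.5% and 100% with 5-azadC, and in the 11 columns of the intronic run the libraries without 5-azadC lie above 90% apart from C29 replicate 1 at +1090 (59.1%) and +1153 (82.2%).

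**Figure D3:**
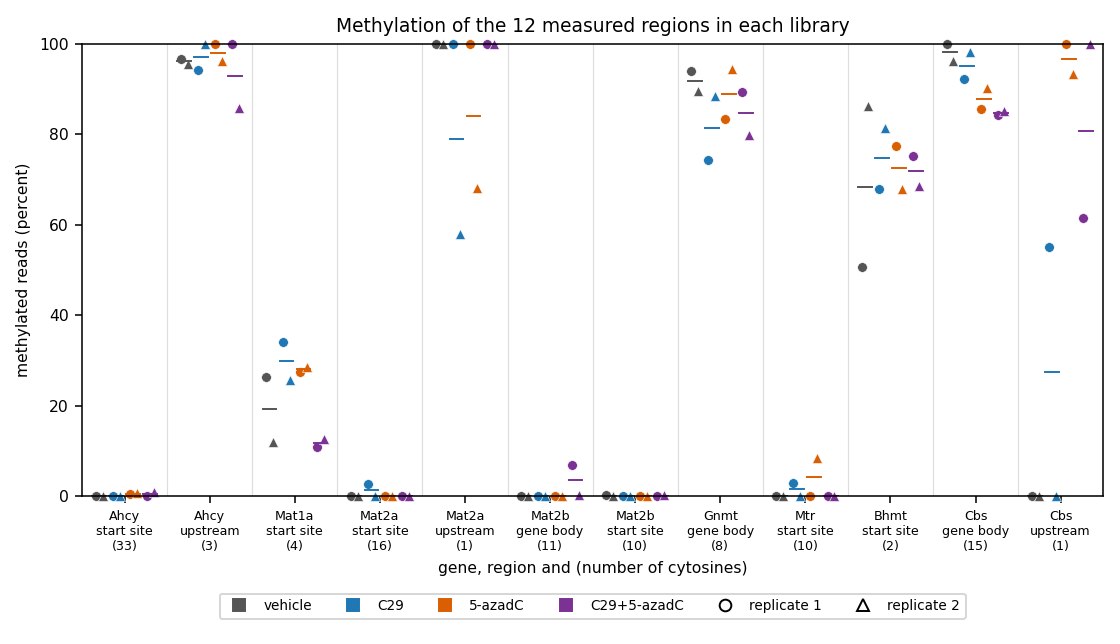
Methylation in percent of the 12 regions of the members in each library, with color for the group, shape for the replicate and a bar for the mean of the 2 libraries. The start sites of Ahcy, Mat2a, Mat2b and Mtr lie at the bottom, Mat1a at 10.9% to 34.0% and Bhmt at 50.7% to 86.3%, and the Cbs regions are the 2 in which libraries with and without 5-azadC do not overlap.

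Set beside all protein-coding genes, the start sites of the members moved little, as most start sites did. The median difference with minus without 5-azadC was 0.25 points over the 6 start-site regions of members and -0.05 over 12992 start-site regions. It was 2.54 against -4.59 over the 3 upstream regions and 0.17 against -6.59 over the 3 gene bodies. Each of these member medians is the value of 1 region, namely the 1 upstream cytosine of Mat2a and the 8 cytosines of Gnmt. The Mat2b body averaged 0.0372% without 5-azadC, which left little room for a fall, and the Cbs body differed by -10.34 points. For C29 the medians were -0.06, -2.12 and -3.08 points for the members and 0.00, 0.09 and 0.26 for all regions of the same kind.

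**Figure D4:**
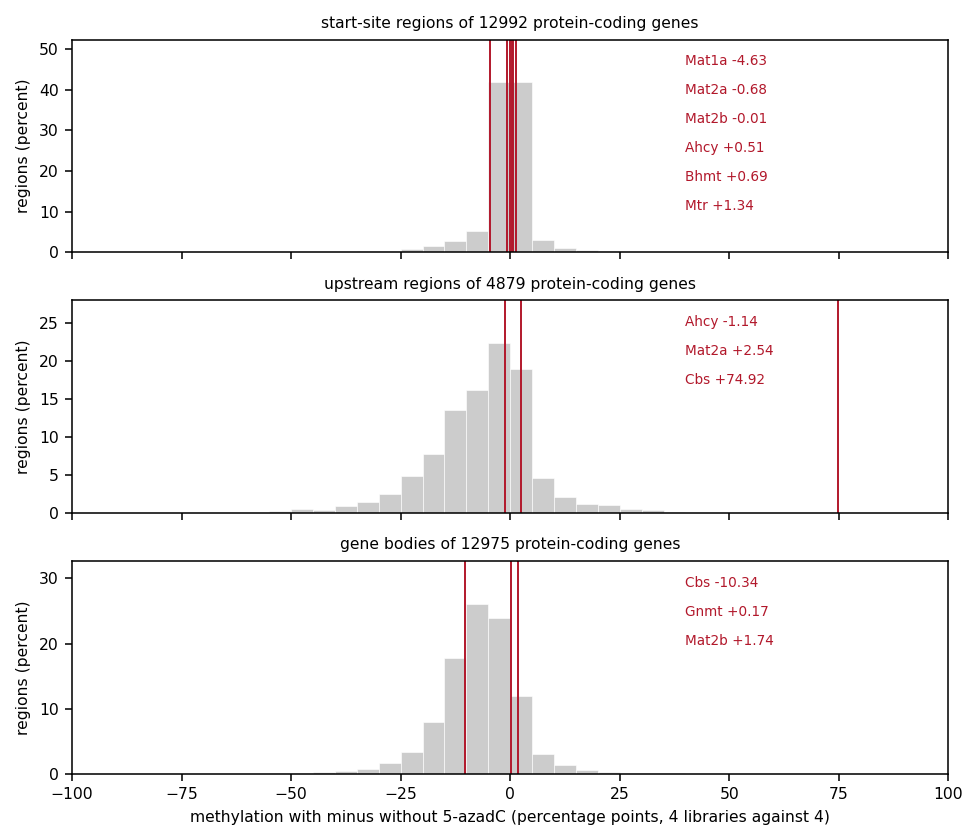
Difference in methylation with minus without 5-azadC, in percentage points over 4 libraries against 4, for the start-site, upstream and gene-body regions of all protein-coding genes (grey histograms, percent of regions) and for the members (red lines with their values). The Cbs upstream cytosine at +74.92 stands far right of the other upstream regions, and the Cbs gene body at -10.34 lies within the body of its histogram.

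The level at the start site also differed among members with CpG density, which no rule here used. The ratio of CpGs observed to those expected from base composition, over 2000 bp around the 5′ end, was 0.898 for Mat2a, 0.665 for Mtr, 0.633 for Cbs, 0.563 for Ahcy, 0.524 for Mat2b, 0.448 for Gnmt, 0.283 for Bhmt, 0.212 for Mat1a and 0.181 for Nnmt, and its median was 0.478 over 21728 genes. The 4 measured members above that median were nearly unmethylated, and the 2 below it, Mat1a and Bhmt, were partly methylated. Among all genes with a ratio of 0.2 to 0.4, the median start-site methylation in vehicle was 38.0%, and it was 0.997% for 0.4 to 0.6, 0.489% for 0.6 to 0.8 and 0.374% for 0.8 to 1. The number of MspI sites in the same 2000 bp ranged from 1 in Nnmt to 13 in Mat2a.

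**Figure D5:**
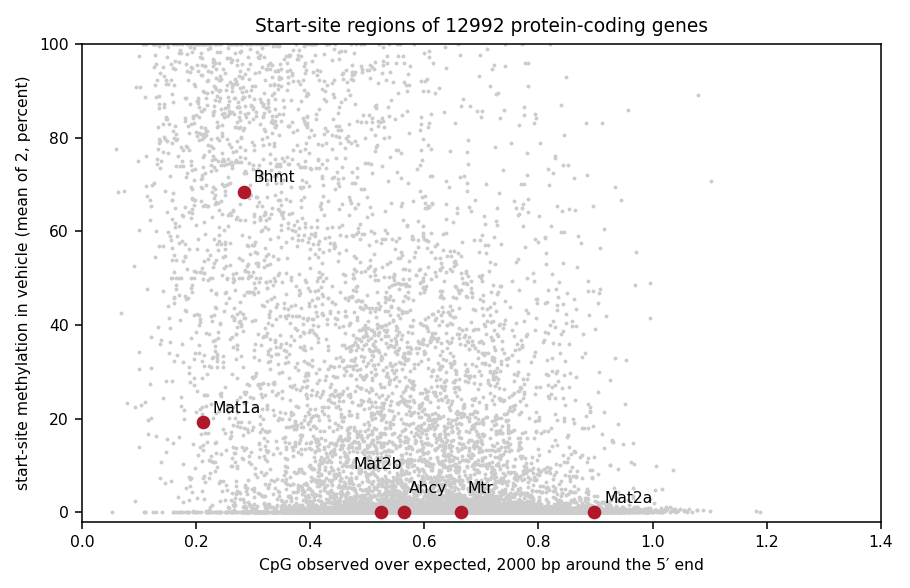
Start-site methylation in vehicle (mean of 2 libraries, percent) against the CpG observed-over-expected ratio of the 2000 bp around the 5′ end, for 12992 protein-coding genes (grey) and the 6 measured members (red). Mat2a, Mtr, Ahcy and Mat2b lie at the bottom, with Mat1a and Bhmt on the left.

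Each treatment was also compared with vehicle in tiles of 1000 bp by a logistic test on the reads of 2 libraries against 2, where a call required a gap of 25 points or more together with a q-value under 0.01 (Benjamini-Hochberg). This test covers counting error only, counts a read at each cytosine that it covers, and compares these libraries, not the conditions. Of the 16 tiles of members it called 1 for C29, 1 for 5-azadC and 2 for both drugs, beside 10.6%, 15.4% and 15.1% of 113626 tiles in the genome. The called tiles were both of Cbs. The tile of its upstream cytosine was higher by 35.6 points with C29, 97.3 with 5-azadC and 78.3 with both, and the tile of its coding exon was lower with both drugs, at -28.5 points.

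The calls rested in part on single libraries. Without C29 replicate 1 the C29 difference in the upstream Cbs tile was 0, and the Mat2a upstream tile was called instead at -42.1 points. Without 5-azadC replicate 1 the Mat2a tile was called as well, at -31.9. The intronic Cbs tile, with 11 cytosines, was lower by 13.2 points with 5-azadC and 12.1 with both, less than the 25 points required.

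When the spread between libraries was estimated (edgeR quasi-likelihood test on methylated and unmethylated counts of all 8 libraries), 0 of the 15 fitted tiles of members passed an adjusted p of 0.05 for 5-azadC, C29 or their interaction, and 0% of 110031 tiles did in each comparison. At an unadjusted p below 0.05, edgeR held 2 member tiles for 5-azadC, 1 for C29 and 0 for the interaction, beside 5.49%, 2.57% and 2.63% of all tiles. They were the Ahcy start-site tile (edgeR adjusted p = 0.895) and the Cbs intronic tile (adjusted p = 0.900) for 5-azadC, and the Cbs exon tile for C29 (adjusted p = 1). The upstream Cbs tile had an edgeR adjusted p of 0.908 for 5-azadC.

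A list of 59 other genes of one-carbon metabolism gave a wider view of the pathway, and 53 of them had a measured region. With 5-azadC, 8 of their 101 regions were lower and 0 higher in all 4 libraries, and with C29 2 were lower and 1 higher. Over all 30846 regions, 7.63% were lower and 0.428% higher with 5-azadC, and 0.995% and 0.924% with C29. The list lay near those shares, and the small counts by role were not tested. The lower regions with 5-azadC were 2 of 27 in the folate cycle, 2 of 12 in betaine and choline metabolism, 1 of 11 in transsulfuration, 1 of 12 among small-molecule methyltransferases, 1 of 4 in cobalamin handling, 1 of 6 in methionine uptake, and 0 of 13 and 0 of 16 among SAM and homocysteine genes and among methionine salvage and polyamine genes. The median difference over the 101 regions was -1.66 points, against -1.53 over all 30846.

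The 1 start-site region among those 8 was that of Slc7a5, which encodes a subunit of a carrier that takes methionine and other large neutral amino acids into cells. Its 22 cytosines read 0.882% and 1.23% in vehicle, 0.531% and 1.56% with C29, and 0% in each of the 4 libraries with 5-azadC. The difference was -1.05 points, near the floor, since the unmethylated spike-in DNA read 0.216% to 0.329%. The list held 44 start-site regions, and 1.75% of all 12992 were lower in this way. In the test against vehicle, 13 of the list's 231 tiles were lower and 7 higher with C29, 35 and 3 with 5-azadC, and 25 and 9 with the combination, or 8.66%, 16.5% and 14.7% in all. Over the 113626 tiles of the genome, 6171 were lower and 5923 higher with C29, 14428 and 3085 with 5-azadC, and 13182 and 3968 with the combination, so the shares called in the list lay near the 10.6%, 15.4% and 15.1% of all tiles.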

How the data were processed

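RRBS libraries of 4 groups of NIC-5231 tumors were analysed, 2 per group, grouped by their titles. Each CpG cytosine, strand by strand, was deposited with its methylated fraction and its read counts, which the authors did not normalize. Per the submitters' processing notes, FastQC 0.11.8, Trim Galore 0.4.1, Bismark 0.20.0 and methylKit 1.7.0 were used with mm10/GRCm38. Their settings were not given in the sources used here.

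Methylated reads were the product of fraction and reads, which was whole within 0.01 reads for nearly all cytosines. Cytosines needed 10 reads in all 8 files, and the strands were kept apart. Reads were summed over the cytosines of each tile of 1000 bp or each region, so a read over several cytosines was counted at each. Read totals of tiles and regions therefore exceed the number of separate reads. Tiles were tested by a logistic likelihood-ratio test without overdispersion (Python 3.11.15, NumPy 2.4.6, SciPy 1.17.1, pandas 2.3.3) and in R 4.3.3 by edgeR 4.0.16 (limma 3.58.1), and regions by exact permutation, with Benjamini-Hochberg adjustment over all tiles or regions. Sequences were read with pysam 0.24.0, and figures were drawn with matplotlib 3.10.9. Limits for a reading of 0 are 3 reads over the total, and intervals are 95% Clopper-Pearson.

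The members and lists were chosen with earlier results of these data known. All 9 members are named with their regions, their start-site tile, their called tiles and their most variable tile. Of the pathway list, genes are named only where a tile was called against vehicle in all 3 comparisons or a start-site region differed with 5-azadC. One result under this rule is not reported here. Genes most like Bhmt were the 5 nearest.

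Alternatives covered read depth, tile length, the number of cytosines, the minimum difference, deep cytosines, strands, weighting, the extent of the start site, overdispersion, edgeR, the replicate number as a block, and leaving out each library. On simulated data with 200 shifted tiles, the logistic test of 5-azadC against vehicle called 174 (87.0%) among 113626 tiles with counting error alone, and edgeR over all libraries called 200 (100%) among 109477 tiles, but 43 (21.5%) among 108432 at an overdispersion of 0.02. Expression and metabolites were not analysed here.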

Additional observations from a re-analysis of the deposited data

Results flagged for a closer look

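With both strands summed, the effect of 5-azadC on the start-site region of Mat1a had opposite signs in the absence and presence of C29. The 12 member regions were searched for such opposite, non-overlapping effects of either drug, and this was the only case. How often such a pattern occurs over all regions was not computed. Without C29, both 5-azadC libraries (27.6% and 28.6%) lay above both vehicle libraries (26.5% and 11.9%), a difference of means of 8.87 percentage points. With C29, both combination libraries (10.9% and 12.6%) lay below both libraries with C29 alone (34.0% and 25.7%), a difference of -18.1. The effects differed by -27.0 points, and this difference of the region was not tested. Neither strand alone showed the full pattern. On the plus strand, 5-azadC (15.3% and 23.7%) overlapped vehicle (22.6% and 12.7%). On the minus strand, the combination (14.3% and 36.7%) overlapped C29 alone (30.6% and 30.8%). For the tile of the same 4 cytosines, the edgeR interaction had a p of 0.114 (adjusted 1).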

How the results depend on the processing

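Counts of called tiles and of non-overlapping regions depended on the read depth, the number of cytosines and the test. Shares of all tiles or regions under the altered settings are not given here, so the member counts below have no background beside them. With 20 reads required in all 8 files, the logistic test called 0, 0 and 1 member tiles for C29, 5-azadC and the combination (1, 1 and 2 at 10 reads), and 1 region in place of 2 did not overlap for 5-azadC. With at least 3 cytosines per tile the counts were 0, 0 and 1, because the upstream Cbs tile rests on 1 cytosine. The overdispersion-corrected F test gave 0, 0 and 0, and edgeR gave 0, 0 and 0 for the same 3 contrasts; the F test with 2 libraries against 2 was not tried on simulated data, so its counts of 0 say little. A minimum difference of 10 points gave 3 for C29 and 4 for 5-azadC. With both strands summed, 1 region did not overlap for 5-azadC. Requiring 10 reads in the 4 libraries compared, an alternative chosen after seeing the data, gave 2 for C29 and 4 for the combination, and the tiles gained were that of Nnmt (51.3 and 43.5 points higher) and, for the combination, a Gnmt tile with 1 cytosine (42.9 points higher), where vehicle read 44.2% and 100% and both combination libraries 100%.

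Leaving out each library in turn gave 1 called member tile for C29, 1 to 2 for 5-azadC (2 without 5-azadC replicate 1) and 2 for the combination, 2 to 3 non-overlapping regions for 5-azadC and 0 to 1 for C29 (1 without 5-azadC replicate 1), and 0 tiles by edgeR for 5-azadC, C29 and the interaction. Same-numbered libraries did not deviate together (correlations of -0.0128 to 0.0358 over 21124 regions), so the numbers do not pair them, and the replicate block left the counts at 1, 1 and 2 tiles by the logistic test, 0, 0 and 0 by edgeR, and 2 and 0 regions at the smallest p, which is 0.0556 within replicate numbers. No called value changed its sign under these settings. Apart from left-out libraries, 44 counts stayed within 1.5 times the reported one, 14 were lower and 4 higher, and the cause of the other changes was not tested except where named. The 44 include counts of 0 that stayed at 0, such as those of edgeR with the replicate block. Depth limits the upstream Cbs cytosine most, at 11 to 39 reads, and 2 libraries per group cannot reach an exact permutation p below 0.05.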

Other observations

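The tiles of 3 other one-carbon genes given here, from a list with 231 tiles, were called against vehicle in all 3 comparisons by the logistic test. Each rested on 1 cytosine. All 3 comparisons used the same vehicle libraries, so the 3 calls of a tile are not independent of each other. The share of all tiles in the genome called in all 3 comparisons is not given here, so these tiles have no background beside them. The Chdh tile, of choline dehydrogenase, which forms the precursor of betaine, read 0% and 0% in vehicle, 100% and 57.6% with C29, 100% and 100% with 5-azadC, and 100% and 67.9% with both. The Gldc tile, of the glycine cleavage system, read 72.2% and 70.1% in vehicle, 25.8% and 88.2% with C29, 0% and 16.2% with 5-azadC, and 7.14% and 45.3% with both. The Pemt tile, of the enzyme that makes phosphatidylcholine from phosphatidylethanolamine with SAM, read 100% and 100% in vehicle, 73.8% and 39.0% with C29, 100% and 0% with 5-azadC, and 66.0% and 40.3% with both. In the Pemt tile the 5-azadC replicates read at opposite ends of the range, which the logistic test does not take into account.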
